A study of Mus musculus with 22 samples.

Results

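Complement genes were followed in the kidneys of mice given cisplatin, a platinum chemotherapy drug that injures the kidney, with or without KW6002 (istradefylline), an antagonist of an adenosine receptor. The 9 genes were chosen by name, C3, C4b, Cfb, C1qa, C1qb, C1qc, C1s1, Serping1 and Cd55, and each matched 1 of the 32858 genes listed in the count table. All 9 passed the filter on low counts, which left 17131 genes for testing. RNA-Seq of polyadenylated kidney RNA covered 22 male C57Bl6/J mice aged 8 to 10 weeks, 1 library a mouse. The Vehicle group held 5 mice, which received neither drug, and the KW6002 group held 6 mice, which received 3 mg/kg of KW6002 i.p. each day from day -5 to day 7. The Cisplatin group held 5 mice, which received 6 daily i.p. injections of 3 mg/kg cisplatin from day 0 and were sacrificed 72 hours after the last of these. The group labelled Cisplatine + KW6002 held 6 mice given both courses, here called cotreated mice. Libraries held 26471762 to 40510754 counts, with a median of 32721214.5, so that the least abundant of the 9 genes in any library, Cfb in a mouse treated with cisplatin, still rested on 96 reads.

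Complement is a cascade of plasma and cell surface proteins that tags microbes and damaged cells for removal. In the classical pathway, C1q binds its target and switches on the proteases C1r and C1s, which cleave C4 and C2 to form an enzyme that cleaves C3. The lectin pathway reaches the same step through mannose-binding lectin, ficolins and the MASP proteases. The alternative pathway amplifies C3 cleavage with factor B (Cfb), and the terminal components then form a pore in the membrane. Serping1 encodes C1 inhibitor, which stops C1r, C1s and the MASP proteases, and Cd55 encodes decay-accelerating factor, a membrane protein that takes apart the C3-cleaving enzymes. Liver makes most plasma complement, macrophages are a known source of C1q, and injured kidney tubules are known to make C3 locally.

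The members lie on the minus strand of mm10 in the GENCODE M21 annotation. The C1q chains sit side by side on chromosome 4 within 18.7 kb, with C1qb at 136880129 to 136886187, C1qc at 136889804 to 136893065 and C1qa at 136895917 to 136898803. C4b (chromosome 17, 34728380 to 34743882) and Cfb (chromosome 17, 34856374 to 34862518) are 112.5 kb apart in the major histocompatibility complex, and C3 lies on the same chromosome at 57203970 to 57228136. Serping1 is on chromosome 2 at 84765387 to 84775444, C1s1 on chromosome 6 at 124530345 to 124542359, and Cd55 on chromosome 1 at 130439027 to 130462744. GENCODE M21 also places a gene model, Gm20547, over 6107 of the 6145 bases of Cfb on the same strand. Gm20547 is not listed in the count table, so its bearing on the Cfb counts could not be checked. The antisense models over C1s1 and Cd55 reached at most 2 and 5 counts in any library. C4a and C1s2 are near copies of C4b and C1s1. The study kept uniquely aligned reads alone, so reads that align equally well to both copies of a pair were left out. How many such reads there were is not known. C4a held 15 to 65 counts a library against 181 to 1181 for C4b, and C1s2 held 4 to 17 against 614 to 1885 for C1s1.

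RefSeq promoter windows, 250 bases before to 50 after the RefSeq start in GRCm38.p6, were at hand for 5 of the 9 members. For C1qc that start lies inside the gene as placed by GENCODE above. They were searched on both strands for 5 motifs, spelled out here with N for any base: TTCNNNGAA (STAT), GAAANNGAA (interferon-stimulated), GGGANTTTC (NF-kB), TTGCNNAA (C/EBP) and TGANTCA (AP-1). Over all 32851 windows of that length, 8.30%, 8.56%, 1.11%, 10.8% and 7.81% held a match, in the same order. The C3 window (chr17:57228087-57228386, minus strand), shown because C3 had the highest fold change of the members, held a C/EBP match from 45 to 38 bases before the start, in capitals below. The windows of C1qb (chr4:136886151-136886450, minus strand) and C1qc (chr4:136892865-136893164, minus strand), shown because their RNAs varied together from mouse to mouse, held no match to any of the 5 motifs. Of the 6 windows of the 5 members, 2 held any match, that of C3 and a window of C1s1, also for C/EBP (TTAGGCAA). The Cd55 window held none. These counts were not tested against the shares above. A match is a run of letters and was not tested for binding.
C3: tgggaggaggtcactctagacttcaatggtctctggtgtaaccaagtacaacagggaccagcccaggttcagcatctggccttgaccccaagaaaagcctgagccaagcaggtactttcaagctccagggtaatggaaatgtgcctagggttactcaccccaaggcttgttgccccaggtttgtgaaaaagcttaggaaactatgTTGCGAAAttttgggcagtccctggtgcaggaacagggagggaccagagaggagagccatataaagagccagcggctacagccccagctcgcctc
C1qb: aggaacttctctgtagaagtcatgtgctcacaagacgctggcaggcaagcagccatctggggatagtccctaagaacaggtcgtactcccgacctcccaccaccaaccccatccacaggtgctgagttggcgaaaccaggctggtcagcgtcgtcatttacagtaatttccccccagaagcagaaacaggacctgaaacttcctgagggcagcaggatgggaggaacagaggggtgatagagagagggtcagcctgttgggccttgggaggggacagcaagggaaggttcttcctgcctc
C1qc: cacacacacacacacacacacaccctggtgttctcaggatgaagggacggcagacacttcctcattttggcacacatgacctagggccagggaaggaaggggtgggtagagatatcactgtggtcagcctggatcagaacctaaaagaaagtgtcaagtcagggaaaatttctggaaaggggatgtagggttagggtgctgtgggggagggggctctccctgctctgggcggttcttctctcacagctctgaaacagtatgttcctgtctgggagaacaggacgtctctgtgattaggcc

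In vehicle kidneys the 9 genes spanned about an order of magnitude per unit of length. On the scale of CPM, which are read counts normalized to library size, divided by kilobases of merged exon (CPM per kb), C1qb stood at 30.7 ± 17.6 (SD, n = 5), C1qa at 28.6 ± 14.5, Serping1 at 25.4 ± 3.88 and C3 at 23.3 ± 11.6, and these neighbours did not differ beyond their spread. Cfb (15.5 ± 2.48) and C1qc (15.3 ± 8.34) came next, followed by C1s1 at 9.87 ± 2.55. C4b (3.47 ± 3.16) and Cd55 (3.10 ± 0.416) were the lowest. After cisplatin the order was another one. C3 led at 280.5 ± 53.6 CPM per kb (n = 5), Serping1 followed at 81.9 ± 11.2, and Cfb was last at 1.56 ± 0.769. In cotreated mice C3 (132 ± 61.9, n = 6) and Serping1 (47.1 ± 7.47) again led, while Cfb stood at 7.26 ± 1.82, above C4b (3.81 ± 1.41) and Cd55 (3.61 ± 0.437).

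**Figure D1:**
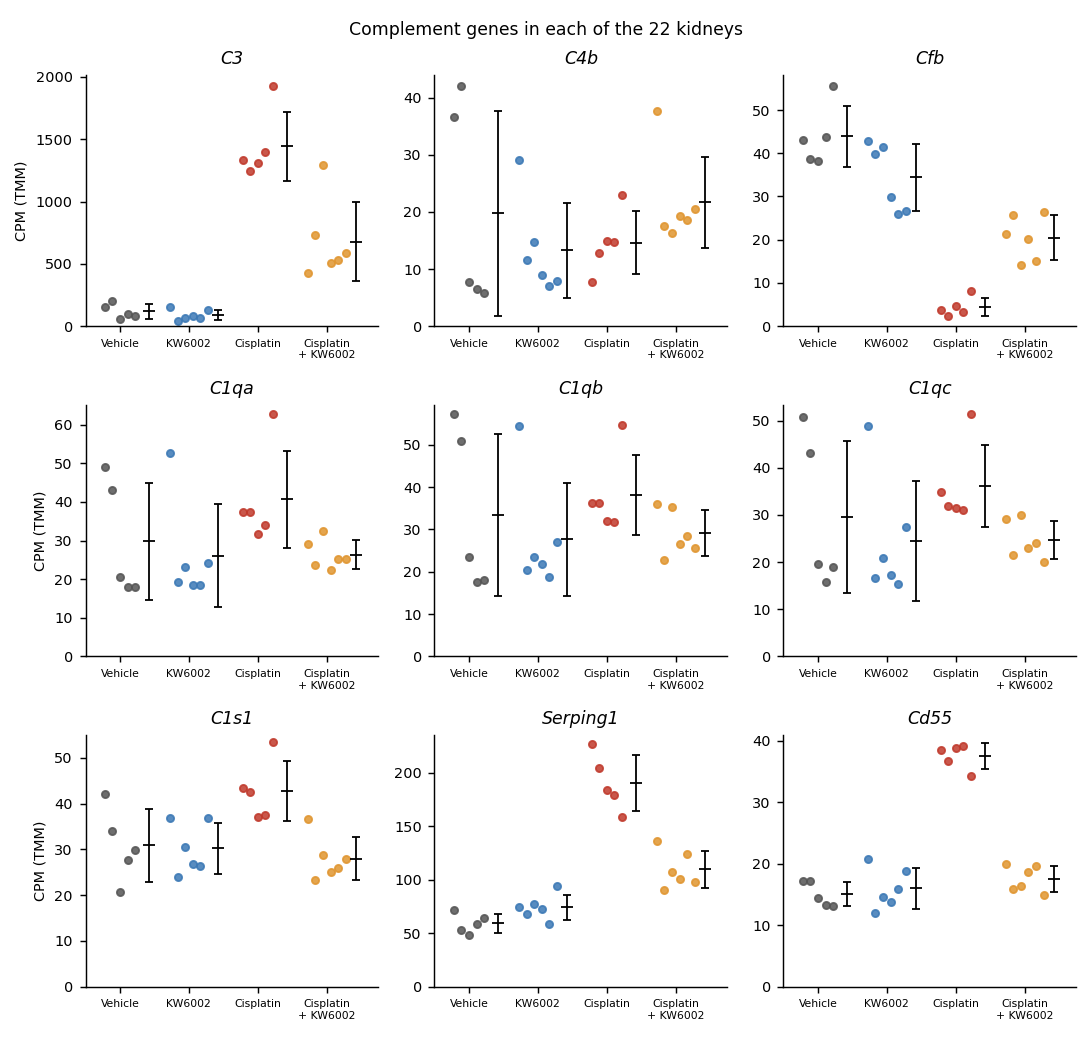
Read counts normalized to library size (CPM, linear axes from 0) of the 9 complement genes, with 1 point a kidney in the 4 groups and the group mean ± SD as a black bar to the right of the points. In the Cisplatin group, C3, Serping1 and Cd55 lie above every control kidney and Cfb lies below every control kidney. The C1q genes and C4b are high in Vehicle 1, Vehicle 2 and KW6002 1, which are also the highest controls in C3.

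Among the control kidneys, 3 libraries stood apart. Vehicle 1, Vehicle 2 and KW6002 1 held 493 to 575 CPM of summed macrophage markers, while the other control libraries held 259 to 373 CPM. Their summed fat markers were 381 to 995 CPM, and those of the other control libraries were 59.2 to 296 CPM. These libraries were also the 3 highest controls in C3, C4b, C1qa, C1qb and C1qc. They belong to mice numbered in the 300s in the labels, as do 3 of the 5 Vehicle and 3 of the 6 KW6002 mice. All mice given cisplatin were numbered in the 500s, so the number series is not balanced over the groups. What the numbers stand for is not stated in the labels. Results that depended on these kidneys are given with and without them. The kidney label was checked against markers, and the 6 proximal tubule, 2 thick ascending limb and 3 podocyte markers had reads in every library.

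Cisplatin against Vehicle asks which complement genes the injured kidney expresses differently. C3, Serping1, Cd55 and C1s1 rose with cisplatin and Cfb fell, while C4b and the C1q genes did not pass the test over all 22 kidneys (edgeR quasi-likelihood test, adjusted p below 0.05 over all genes tested). Thus 4 of 9 members were higher, against 34.6% of all genes tested, and 1 of 9 was lower, against 35.9%. At this threshold the count of higher members was within 1 gene of the background share and the count of lower members was under it. Under a stricter requirement, in which the adjusted p is below 0.01 and the log2 fold change is beyond 1, C3, Serping1 and Cd55 were higher (background 12.1%) and Cfb was lower (background 12.1%). The median log2 fold change of the members was 0.45 beside -0.01 for all genes tested.

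C3, the central component on which all pathways converge, was at 155, 205, 57.3, 96.7 and 83.9 CPM in the Vehicle kidneys and at 1333, 1242, 1311, 1401 and 1925 CPM in the Cisplatin kidneys. The lowest Cisplatin kidney thus lay far above the highest Vehicle kidney. The difference was 12.1-fold, a log2 fold change of 3.59 ± 0.38 (SE; edgeR adjusted p = 1.82e-08), and 4.18 ± 0.40 without Vehicle 1, Vehicle 2 and KW6002 1 (edgeR adjusted p = 1.13e-08).

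Cfb, the protease subunit of the alternative pathway C3 convertase, went the other way. It was at 43.2, 38.8, 38.1, 43.8 and 55.6 CPM in the Vehicle kidneys and at 3.65, 2.41, 4.61, 3.37 and 8.04 CPM in the Cisplatin kidneys, again with no overlap. Cfb fell by 3.32 ± 0.25 on the log2 scale, which is 9.98-fold (edgeR adjusted p = 5.95e-11). The ratio of C3 to Cfb per kilobase was 0.826 to 2.91 in Vehicle and 131 to 283 in Cisplatin kidneys. Beside the lower Cfb, the summed CPM of the 6 proximal tubule markers was 14320 to 15578 in Vehicle and 1430 to 2677 in Cisplatin kidneys, with 6 of 6 markers lower. The part of this in the Cfb result was not tested, and in bulk tissue fewer cells of a type cannot be told apart from less RNA per cell.

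Both inhibitors rose. Serping1 was at 71.2, 53.2, 48.2, 58.8 and 64.2 CPM in the Vehicle kidneys and at 227, 204, 184, 179 and 158 CPM in the Cisplatin kidneys. Every Cisplatin kidney exceeded every Vehicle kidney, with a 3.22-fold difference (log2 1.69 ± 0.13, edgeR adjusted p = 7.77e-11). Cd55 was at 17.2, 17.2, 14.5, 13.2 and 13.1 CPM in the Vehicle kidneys and at 38.5, 36.7, 38.9, 39.2 and 34.3 CPM in the Cisplatin kidneys. The groups were separate and each was tight, and Cd55 was 2.49-fold higher (log2 1.32 ± 0.12, edgeR adjusted p = 1.67e-09). Summed fibroblast markers were 190 to 332 CPM in Vehicle and 696 to 892 CPM in Cisplatin kidneys, with 5 of 6 markers higher and none at 0 in any library. Their part in the Serping1 and Cd55 results was not tested.

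In the classical pathway, the protease gene C1s1 rose less. It was at 42.2, 34.1, 20.6, 27.8 and 29.8 CPM in the Vehicle kidneys and at 43.4, 42.5, 37.1, 37.6 and 53.4 CPM in the Cisplatin kidneys, and these ranges overlapped. C1s1 was 1.39-fold higher (log2 0.47 ± 0.16, edgeR adjusted p = 0.0115), and 0.71 ± 0.16 on the log2 scale without the 3 control libraries (edgeR adjusted p = 0.000496). The adjusted p stayed below 0.05 in 33 of 33 alternatives, the highest being 0.0428.

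C1q gave an answer that depended on which control kidneys were used. C1qa was at 49.1, 43.0, 20.7, 18.0 and 18.0 CPM in the Vehicle kidneys and at 37.3, 37.5, 31.7, 33.9 and 62.7 CPM in the Cisplatin kidneys. The Cisplatin kidneys thus lay above Vehicle 3, 4 and 5, and all but Cisplatin 5 lay below Vehicle 1 and 2. Over all kidneys the log2 differences were 0.45 ± 0.30 for C1qa, 0.19 ± 0.31 for C1qb and 0.29 ± 0.31 for C1qc (edgeR adjusted p = 0.18, 0.59 and 0.41). Without Vehicle 1, Vehicle 2 and KW6002 1, they were 1.10 ± 0.18, 0.96 ± 0.18 and 1.00 ± 0.19, all past the threshold (edgeR adjusted p = 1.79e-05, 9.01e-05 and 0.000114). These kidneys are the controls highest in the C1q genes, and this fit was chosen with the data seen. Leaving out the highest Vehicle kidneys raises the differences by construction, so these p-values are no evidence of a rise. Within the mice numbered in the 500s, which also leaves out these kidneys and keeps 2 Vehicle kidneys, the log2 differences were 1.17, 1.10 and 1.06 (edgeR adjusted p = 0.000171, 0.000247 and 0.000699). Leaving out Vehicle 1 alone, the Vehicle kidney highest in C1qa, was enough for C1qa to pass (log2 0.71, edgeR adjusted p = 0.0389).

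C4b, which encodes mouse C4, followed the same libraries. It was at 36.6, 42.1, 7.70, 6.48 and 5.89 CPM in the Vehicle kidneys and at 7.67, 12.9, 14.8, 14.7 and 23.1 CPM in the Cisplatin kidneys. The difference was -0.43 ± 0.49 on the log2 scale (edgeR adjusted p = 0.44), but without the 3 control libraries it was 1.12 ± 0.32 (edgeR adjusted p = 0.00394) and within the mice numbered in the 500s 1.23 ± 0.36 (edgeR adjusted p = 0.00622). With these libraries left out, 8 members were therefore higher after cisplatin, against 33.2% of all genes tested in that fit, and Cfb was the lower one, against 34.0%. The 8 include C4b and the C1q genes, and the libraries left out are the controls highest in those genes. The count of 8 therefore cannot be read against that share.

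**Figure D2:**
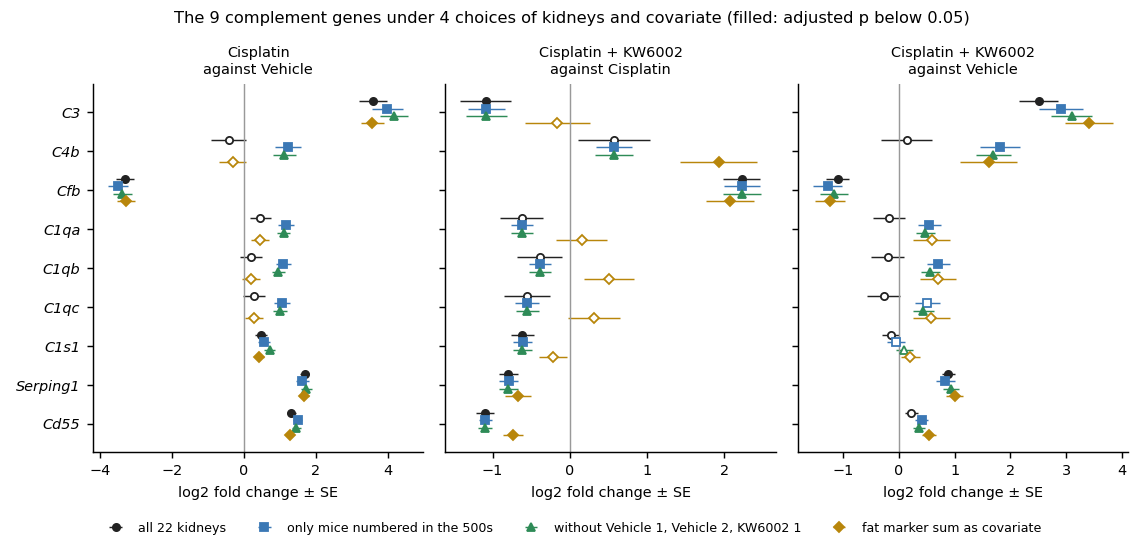
Log2 fold change ± SE (horizontal axes, a different range in each panel) of the 9 complement genes in 3 comparisons, for all 22 kidneys, for mice numbered in the 500s only, without Vehicle 1, Vehicle 2 and KW6002 1, and with the summed fat markers as a covariate. Filled symbols have an adjusted p below 0.05. The C1q genes and C4b move to the right in both comparisons with Vehicle when the 3 kidneys, their highest controls, are left out. C3, Serping1, Cd55 and Cfb keep their direction in every panel.

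Cisplatin + KW6002 against Cisplatin asks what cotreatment changed in the injured kidney. C3, Serping1, Cd55 and C1s1 were lower and Cfb was higher with cotreatment. This comparison shares the Cisplatin kidneys with that of Cisplatin against Vehicle, so their directions are not independent. Of the 9 members 4 were lower, against 27.2% of all genes tested, and 1 was higher, against 28.6%. Under the stricter requirement C3 and Cd55 were lower (background 5.66%) and Cfb was higher (background 4.65%). The median log2 fold change of the members was -0.62 beside 0.01 for all genes tested.

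C3 in cotreated kidneys had a lowest value of 427, a median of 557 and a highest value of 1295 CPM. The highest, cotreated kidney 3, lay within the range of the Cisplatin group, and the next highest was at 733 CPM. C3 was 2.12-fold lower than with cisplatin alone (log2 -1.09 ± 0.33, edgeR adjusted p = 0.00767). Summed fat markers moved with this comparison, at 336 to 630 CPM in Cisplatin and 37.9 to 211 CPM in cotreated kidneys, with 5 of 5 markers lower and Lep at 0 in 1 library. With the fat marker sum as a covariate the C3 difference was -0.16 (edgeR adjusted p = 0.80) and that of C1s1 was -0.22 (edgeR adjusted p = 0.35). As the sums of the groups do not overlap, the covariate and the cotreatment cannot be told apart. The same limit holds for every gene below that is given with this covariate in Cisplatin + KW6002 against Cisplatin.

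Cfb in cotreated kidneys ranged from 14.2 to 26.5 CPM with a median of 20.8 CPM, above every Cisplatin kidney. It was 4.67-fold higher than with cisplatin alone (log2 2.22 ± 0.24, edgeR adjusted p = 7.43e-08). The proximal tubule marker sum was 5429 to 8568 CPM in these kidneys, with 5 of 6 markers higher than in Cisplatin kidneys, and its part was not tested.

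Cd55 in cotreated mice lay close to the Vehicle range. Cotreated kidneys held 14.8 to 19.95 CPM, with a median of 17.5 CPM, and no kidney came near the Cisplatin range. Cd55 was 2.14-fold lower than with cisplatin alone (log2 -1.10 ± 0.11, edgeR adjusted p = 3.76e-08). Serping1 ranged from 90.6 to 136 CPM with a median of 104 CPM, also below every Cisplatin kidney, and was 1.74-fold lower (log2 -0.80 ± 0.12, edgeR adjusted p = 6.99e-06). C1s1 ranged from 23.2 to 36.7 CPM with a median of 26.9 CPM, its highest just under the lowest Cisplatin kidney, and was 1.53-fold lower (log2 -0.62 ± 0.15, edgeR adjusted p = 0.00145). The fibroblast marker sum was 350 to 572 CPM in cotreated kidneys, with 5 of 6 markers lower, and was not tested as a part of these differences.

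The C1q genes had log2 differences of -0.63 ± 0.28 (C1qa), -0.39 ± 0.30 (C1qb) and -0.56 ± 0.29 (C1qc) and did not pass the test (edgeR adjusted p = 0.065, 0.27 and 0.11). C1qa ranged from 22.4 to 32.5 CPM in cotreated kidneys, with 1 kidney inside the Cisplatin range. When the fit held only the Cisplatin and cotreated kidneys, so that the scatter of the control kidneys did not enter, all 3 passed, and 7 members were lower, against 29.6% of all genes tested in that fit. C4b ranged from 16.3 to 37.8 CPM with a median of 18.9 CPM in cotreated kidneys, and its difference of 0.57 ± 0.47 did not pass (edgeR adjusted p = 0.31). Within the mice numbered in the 500s, it was 0.57 ± 0.23 (edgeR adjusted p = 0.0413), and with the fat marker sum as a covariate 1.93 (edgeR adjusted p = 0.00397).

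**Figure D3:**
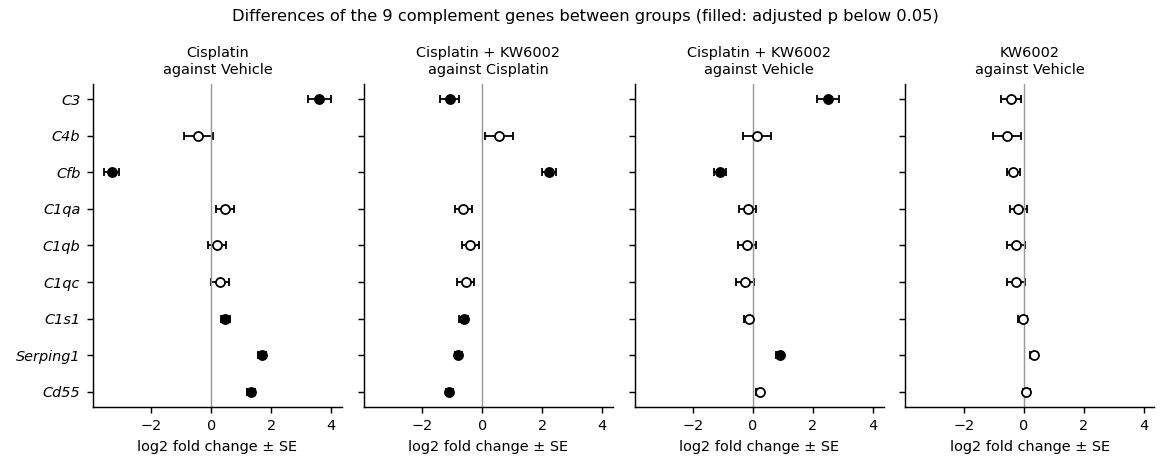
Log2 fold change ± SE of the 9 complement genes in 4 comparisons over all 22 kidneys, on a shared horizontal axis; filled points have an adjusted p below 0.05. Cisplatin against Vehicle and Cisplatin + KW6002 against Cisplatin, which share the Cisplatin kidneys, have 5 filled points each, and KW6002 against Vehicle has none.

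Cisplatin + KW6002 against Vehicle shows how far the cotreated kidney stood from an untreated one. C3 was still 5.67-fold higher (log2 2.505 ± 0.36, edgeR adjusted p = 2.91e-06) and Serping1 1.85-fold higher (log2 0.89 ± 0.12, edgeR adjusted p = 2.00e-06). Cfb was still 2.14-fold lower (log2 -1.10 ± 0.21, edgeR adjusted p = 0.000124), each cotreated kidney lying below each Vehicle kidney. Cd55 (log2 0.22 ± 0.12) and C1s1 (log2 -0.15 ± 0.15) did not pass the test (edgeR adjusted p = 0.11 and 0.43), although Cd55 passed without the 3 control libraries (log2 0.36 ± 0.11, edgeR adjusted p = 0.0109). Thus 2 of 9 members were higher, against 29.8% of all genes tested, and 1 was lower, against 29.9%. C4b stood out among the rest once those libraries were left out, at a log2 difference of 1.70 ± 0.32 (edgeR adjusted p = 0.00014), and so did the C1q genes, at 0.48, 0.57 and 0.44 for C1qa, C1qb and C1qc (edgeR adjusted p = 0.025, 0.00953 and 0.0488), after negative values over all kidneys. The libraries left out are the controls highest in C4b and the C1q genes, which raises these differences by construction. With all kidneys in the fit, C4b differed by 0.14 ± 0.46 (edgeR adjusted p = 0.81).

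KW6002 against Vehicle asks what the drug did alone. None of the 9 members passed the edgeR test in either direction, while 3 of 17131 genes were higher (0.0175%) and 0% were lower. At an unadjusted p below 0.05, 1 of the 9 did, Serping1, at a log2 difference of 0.32 ± 0.12 (edgeR adjusted p = 0.33), with 58.3 to 93.6 CPM in the KW6002 kidneys. DESeq2 called 46 genes higher and 53 lower in this comparison. C3 stood at 40.95 to 155 CPM, within reach of the Vehicle kidneys (log2 difference -0.42 ± 0.33, edgeR adjusted p = 0.66). Cfb fell into separate ranges by mouse number, with 39.9 to 42.7 CPM in KW6002 1, 2 and 3 and 25.9 to 29.8 CPM in KW6002 4, 5 and 6. The Vehicle kidneys of the same series were at 38.1 to 43.2 and at 43.8 and 55.6 CPM, and within the 500s the Cfb difference was -0.85 ± 0.31 (edgeR adjusted p = 0.34).

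The effect of KW6002 in mice given cisplatin was then set against its effect without cisplatin, as the difference of the log2 fold changes. It differed for Cfb (2.57 ± 0.32, edgeR adjusted p = 1.35e-06), Cd55 (-1.18 ± 0.16, edgeR adjusted p = 5.72e-06), Serping1 (-1.12 ± 0.17, edgeR adjusted p = 1.94e-05) and C1s1 (-0.58 ± 0.22, edgeR adjusted p = 0.0334). Of the 9 members 1 was thus higher, against 22.8% of all genes tested, and 3 were lower, against 19.9%. For C3 the difference was -0.66 ± 0.47 and did not pass (edgeR adjusted p = 0.27). It was -1.02 ± 0.43 without the 3 control libraries and -1.11 ± 0.44 within the 500s, also short of the threshold (edgeR adjusted p = 0.0609 and 0.0596), and -0.099 with the fat marker covariate (edgeR adjusted p = 0.89). The call for C1s1 held in 23 of 32 alternatives and was lost with the fat marker covariate (-0.35, edgeR adjusted p = 0.16) and when Vehicle 3, 4 or 5, KW6002 1 or 6, Cisplatin 5 or cotreated mouse 2 or 4 was left out in turn (-0.57 to -0.47, edgeR adjusted p = 0.0515 to 0.0709).

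The A, B and C chains of C1q assemble into a common protein, and their RNAs ran in step. The ratio of C1qa to C1qb in CPM was 0.804 to 1.15 over the 22 kidneys, and that of C1qc to C1qb was 0.783 to 1.05, although the C1q sum itself ran from 51.3 to 169 CPM. As deviations from the group means on the log2 scale, the chains correlated with each other at r = 0.97 to 0.98 (n = 22 libraries). With the summed macrophage markers, the deviations correlated at 0.94, 0.95 and 0.96 for C1qa, C1qb and C1qc, at 0.79 for C3, at 0.76 for C4b and C1s1 and at 0.04 for Cfb. With the fibroblast marker sum, the deviations correlated at 0.82 for Serping1, 0.81 for C1s1 and 0.65 for Cd55. They did so at 0.35 to 0.60 for C3, C4b and the C1q genes and at -0.11 for Cfb. With the fat marker sum, the values were 0.52 to 0.66, apart from 0.23 for Serping1 and -0.12 for Cfb. The proximal tubule marker sum gave 0.53 for Cfb and -0.26 to 0.36 for the other members. Without Vehicle 1, Vehicle 2 and KW6002 1 (n = 19 libraries), the chains correlated with each other at 0.87 to 0.91, and with the macrophage markers at 0.72, 0.80 and 0.85. The value with the macrophage markers was then 0.61 for C3, 0.65 for C1s1 and 0.082 for C4b, so that the one for C4b rested on the 3 kidneys. With the fibroblast markers it was 0.87 for Serping1, 0.78 for C1s1 and 0.55 for Cd55. These values describe the same libraries and carry no test.

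C1q RNA was also set against macrophage marker RNA in each kidney. The C1q sum divided by the sum of 11 macrophage markers was 0.187 to 0.303 in Vehicle, 0.203 to 0.271 in KW6002, 0.284 to 0.422 in Cisplatin and 0.319 to 0.372 in cotreated kidneys. All cotreated kidneys lay above all Vehicle kidneys, the highest of which were Vehicle 1 and 2, and the Cisplatin and cotreated ranges overlapped. The macrophage sum itself was 323 to 400 CPM in Cisplatin and 193 to 306 CPM in cotreated kidneys. Of the 11 macrophage markers, all with reads in every library, 2 were higher and 3 lower in Cisplatin against Vehicle, and 1 was higher and 3 lower in Cisplatin + KW6002 against Cisplatin. These markers did not move together. Csf1r was at 75.2 to 106 CPM in control, 29.1 to 43.4 CPM in Cisplatin and 34.0 to 46.6 CPM in cotreated kidneys. Cd68 was at 5.10 to 38.8, 48.3 to 67.8 and 9.94 to 21.4 CPM in the same order. The ratio thus depends on the markers summed, and it was not computed with another set. No test was run on these ratios.

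**Figure D4:**
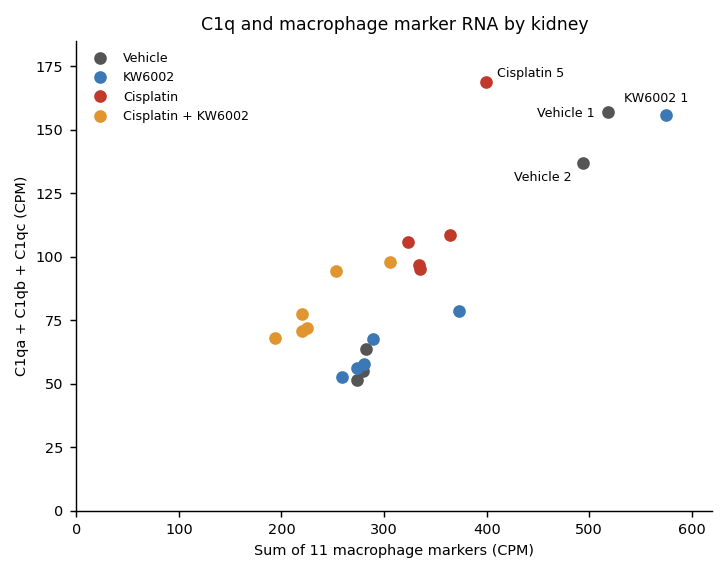
Sum of C1qa, C1qb and C1qc (CPM, vertical axis) against the sum of 11 macrophage markers (CPM, horizontal axis), with 1 point a kidney, coloured by group. Vehicle 1, Vehicle 2 and KW6002 1 lie apart at the right. With this set of markers, which did not move together, every cotreated kidney has a higher ratio of C1q to macrophage markers (0.319 or more) than every control kidney (0.303 or less).

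The rest of the cascade was described from a list of 47 other complement genes, of which 44 were listed in the table and 37 passed the filter. With cisplatin 13 of the 37 rose, against 34.6% of all genes tested, and 8 fell, against 35.9%. With cotreatment against cisplatin 6 rose, against 28.6%, and 10 fell, against 27.2%. The counts by role that follow stand beside the same shares and were not tested. The median log2 fold changes were 0.02 and -0.07, beside -0.01 and 0.01 for all genes tested. The calls went in both directions in the lectin pathway, the terminal pathway, the fluid-phase regulators and the receptors.

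Among terminal components, C6 and C7, which extend the pore complex from C5b, rose, while the C8 subunit genes C8a and C8g fell. C7 was at 7.30 to 14.7 CPM in Vehicle and 49.5 to 62.0 CPM in Cisplatin kidneys (log2 2.57 ± 0.17, edgeR adjusted p = 5.10e-12). With cotreatment it was at 46.7 to 67.9 CPM, a log2 difference from cisplatin of -0.05 ± 0.15 (edgeR adjusted p = 0.79), and again higher than in Vehicle kidneys (log2 2.52 ± 0.16, edgeR adjusted p = 2.04e-11). C6 rose from 0.493 to 1.91 CPM in Vehicle to 4.65 to 5.94 CPM (log2 2.56 ± 0.33, edgeR adjusted p = 3.81e-07) and was lower with cotreatment (log2 -1.70 ± 0.29, edgeR adjusted p = 3.64e-05), a call lost with the fat marker covariate (log2 -0.98, edgeR adjusted p = 0.0506). C8a went from 15.8 to 44.4 CPM in Vehicle to 0.693 to 5.47 CPM in Cisplatin kidneys (log2 -3.09 ± 0.36, edgeR adjusted p = 7.82e-08). C8g fell by 2.87 ± 0.17 (edgeR adjusted p = 5.74e-13) and rose by 1.03 ± 0.16 with cotreatment (edgeR adjusted p = 1.26e-05).

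In the lectin pathway, 2 genes rose and 3 fell with cisplatin, and the rise of Masp2 was lost within the 500s (log2 0.46, edgeR adjusted p = 0.10). Mbl2, a mannose-binding lectin, was near its floor with 0 to 0.113 CPM in Cisplatin kidneys, against 0.293 to 0.518 in Vehicle and 0.608 to 0.974 in cotreated kidneys. Masp2, the protease that cleaves C4 and C2, was at 1.63 to 2.54 CPM in Cisplatin and 0.376 to 0.602 CPM in cotreated kidneys, the largest decrease with cotreatment among those of the 37 whose average log2 CPM was 0 or more (log2 -2.24 ± 0.22, edgeR adjusted p = 1.33e-08). In the classical pathway, C1ra, the partner protease of C1s, rose by 0.72 ± 0.13 with cisplatin (edgeR adjusted p = 2.71e-05) and fell by 0.59 ± 0.12 with cotreatment (edgeR adjusted p = 0.000261), but with the fat marker covariate the latter was -0.20 (edgeR adjusted p = 0.23). C2 and C4a were not called in either comparison. In the alternative pathway neither Cfd nor Cfp was called over all kidneys. Cfd, known as adipsin from fat cells, was at 21.2 to 386 CPM within the Vehicle group alone, and was called higher with cisplatin without the 3 control libraries (log2 1.91, edgeR adjusted p = 0.0397) and within the 500s (log2 2.21, edgeR adjusted p = 0.0373).

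Of the 7 fluid-phase regulators tested, 4 rose with cisplatin and 1 fell. The rise of Cfi was lost without the 3 control libraries (log2 0.63, edgeR adjusted p = 0.0535), without Vehicle 4 (0.55, edgeR adjusted p = 0.0517) and without Cisplatin 5 (0.36, edgeR adjusted p = 0.13). Clu, encoding clusterin, an inhibitor of the terminal complex, was at 197 to 258, 854 to 1076 and 551 to 709 CPM in Vehicle, Cisplatin and cotreated kidneys. Cfi, the protease that inactivates C3b and C4b, and Cpn1, a subunit of the carboxypeptidase that trims C3a and C5a, rose with cotreatment against cisplatin. Cpn1 was at 66.5 to 83.1 CPM in Vehicle, 34.4 to 67.9 CPM in Cisplatin and 128 to 168 CPM in cotreated kidneys (cotreatment against cisplatin, log2 1.77 ± 0.13, edgeR adjusted p = 3.68e-10). Cfi was at 5.64 to 7.56, 7.64 to 15.9 and 12.2 to 27.3 CPM (cotreatment against cisplatin, log2 1.07 ± 0.21, edgeR adjusted p = 0.00019).

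Cd55 was set beside the other membrane regulators. Of the 6 tested, Cd59b was lower with cisplatin (log2 -1.02 ± 0.19, edgeR adjusted p = 5.40e-05) and none was called with cotreatment against cisplatin. Cd59a, another gene for the inhibitor of the membrane pore, stood at 26.9 to 37.5 CPM in Vehicle and 28.3 to 37.4 CPM in Cisplatin kidneys. Among the 8 receptors tested, 4 rose and 1 fell with cisplatin. Itgam, a subunit of complement receptor 3, went from 0.618 to 2.91 CPM in Vehicle to 6.10 to 9.54 CPM (log2 2.21 ± 0.38, edgeR adjusted p = 2.27e-05), and C5ar1, a receptor for C5a, from 0.716 to 3.77 to 5.25 to 7.27 CPM (log2 1.43 ± 0.37, edgeR adjusted p = 0.00152). Both were lower with cotreatment, by -1.19 ± 0.34 and -1.27 ± 0.34 (edgeR adjusted p = 0.00482 and 0.00312). With the fat marker covariate, which cannot be told apart from cotreatment here, the values were -0.27 and -0.22 (edgeR adjusted p = 0.67 and 0.70). Cr2, complement receptor 2, fell by 2.36 ± 0.22 with cisplatin (edgeR adjusted p = 2.84e-09).

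**Figure D5:**
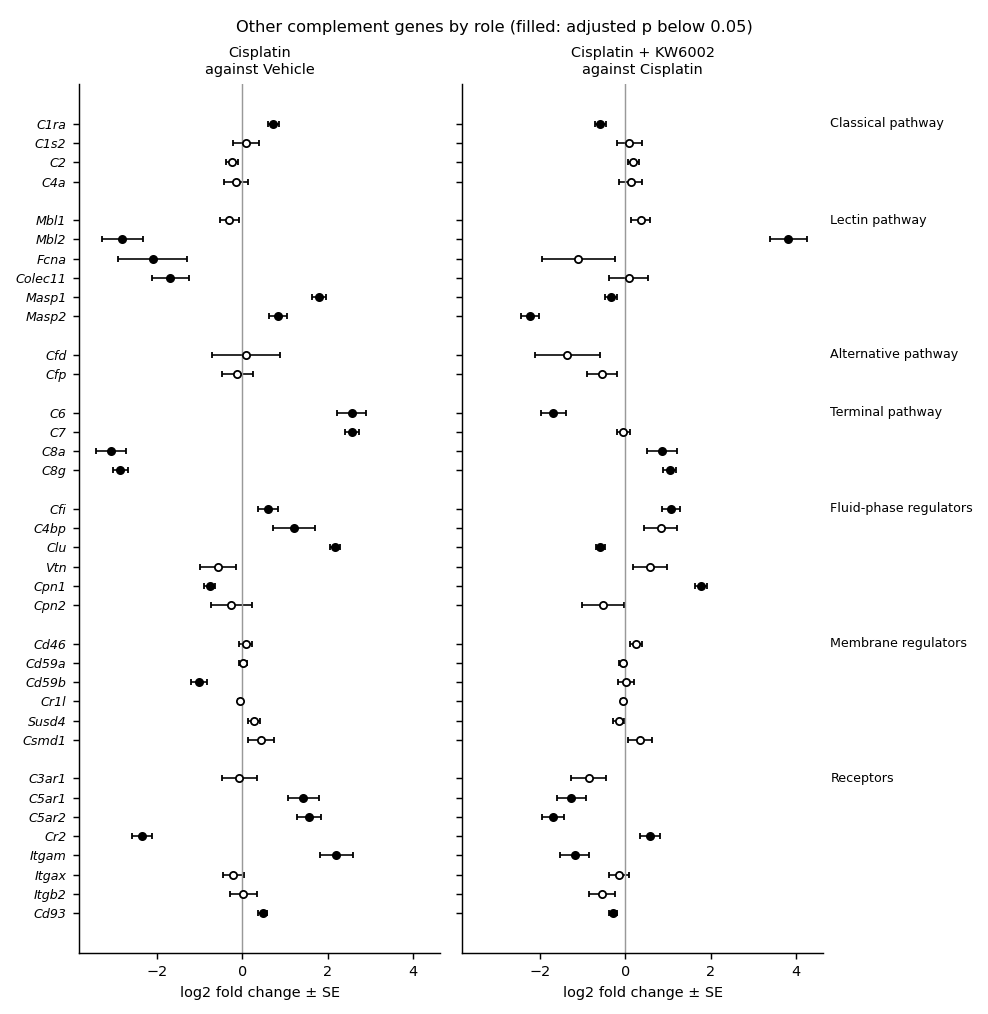
Log2 fold change ± SE of 36 of the 37 other complement genes that were tested, grouped by role, in Cisplatin against Vehicle (left) and Cisplatin + KW6002 against Cisplatin (right). Filled points have an adjusted p below 0.05; the comparisons share the Cisplatin kidneys. C7 is far to the right with cisplatin and at 0 with cotreatment, and the membrane regulators lie near 0 apart from Cd59b.

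Other genes whose level followed a member most closely were found by the Pearson correlation of log2 CPM over the 22 kidneys, a description to which the differences between groups contribute. For C3 these were Trafd1 (r = 0.98), Eif4ebp1 (0.98), Rap2b (0.97) and Akr1b8 (0.97). For C1qb they were Ctss (0.95), Tyrobp (0.93), Fermt3 (0.92) and Laptm5 (0.92). For Serping1 they were Fblim1 (0.98), Emilin1 (0.98), Bgn (0.97) and Axl (0.97), and for Cd55 they included Sparc, Adamts2 and Jpt1, all at 0.96. The nearest genes of Serping1 and Cd55 included matrix genes such as Bgn, Emilin1 and Sparc.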

How the data were processed

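Kidney RNA of 22 mice was sequenced from stranded poly(A) libraries. The authors aligned the reads to mm10 with STAR (version not given in the labels) and counted them per Ensembl gene with HTSeq 0.6.1p1; the strand setting of that step is not given in the sources used here. The deposited values are whole-number read counts per gene, not normalized. The 66 unnamed columns of the table were empty and not used.

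Counts were normalized by TMM, filtered with filterByExpr (minimum count 10, which left 17131 genes holding 99.9% of counts) and tested with edgeR 4.0.16 (quasi-likelihood F test, 1 mean per group over all 22 libraries) in R 4.3.3, with Benjamini-Hochberg adjustment over all genes tested. The fitting code was tested on simulated data. CPM are counts scaled to the TMM-adjusted library size, and CPM per kb divide by the merged exon length. A called gene has an adjusted p below 0.05. Log2 CPM used a prior count of 2.

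The members, the other complement genes and the marker lists were chosen with earlier results of these data known. Of the other complement genes, those with the 3 largest called changes per direction in Cisplatin against Vehicle and in Cisplatin + KW6002 against Cisplatin were named (average log2 CPM 0 or more). C1ra, C2, C4a, Mbl2, Cfd, Cfp, Clu, Cd59a and Cd59b were added after their values were seen. Masp1, C5ar2, C3ar1 and Cr1l, named in the closing sections, also fall outside this rule. Alternatives included DESeq2 1.42.0, other scalings and filters, and leaving out each library. Protein sequences and promoters of C4b, Cfb, C1qa and Serping1 were not used here. Values of some genes are not reported here.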

Additional observations from a re-analysis of the deposited data

Results flagged for a closer look

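In 20 of 116 sets of 5 or 6 kidneys (a gene in a group), the highest kidney lay far from the nearest other by Dixon's criterion at the 95% level. Chance alone would do so in about 1 of 20 independent sets of normally distributed values. The sets here share kidneys and genes that vary together, so the count cannot be read against that rate. KW6002 1 was flagged for C4b (29.1 CPM, nearest other 14.8), C1qa (52.7, nearest 24.2), C1qb (54.4, nearest 27.1), C1qc (48.8, nearest 27.4), Itgam (4.01, nearest 1.80), C5ar1 (3.90, nearest 1.72), Cfd (214, nearest 81.7) and C3ar1 (14.7, nearest 3.94). Vehicle 1 was flagged for C6 (1.91 CPM, nearest 0.802) and Clu (258, nearest 214), and KW6002 6 for Clu (278, nearest 199). Cisplatin 5 was flagged for C3 (1925 CPM, nearest 1401), C1qa (62.7, nearest 37.5), C1qb (54.6, nearest 36.3), C1qc (51.4, nearest 34.8), Cpn1 (67.9, nearest 43.7) and Cfi (15.9, nearest 9.14). Cisplatin 1 was flagged for C5ar1 (7.27 CPM, nearest 5.83). Cotreated mouse 3 was flagged for C3 (1295 CPM, nearest 733), and cotreated mouse 1 for C4b (37.8, nearest 20.5).

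The effect of KW6002 with cisplatin differed from its effect without cisplatin, as a tested difference of log2 fold changes, for 4 members: Cfb (2.57, edgeR adjusted p = 1.35e-06), C1s1 (-0.58, edgeR adjusted p = 0.0334), Serping1 (-1.12, edgeR adjusted p = 1.94e-05) and Cd55 (-1.18, edgeR adjusted p = 5.72e-06). Among the other complement genes it was higher with cisplatin for Mbl2 (3.70, edgeR adjusted p = 2.09e-05), Cpn1 (2.17, edgeR adjusted p = 8.85e-09), Cfi (1.08, edgeR adjusted p = 0.00686), C8g (0.99, edgeR adjusted p = 0.000758) and Cr2 (0.75, edgeR adjusted p = 0.0478). It was lower with cisplatin for Masp2 (-2.82, edgeR adjusted p = 1.72e-07), C5ar2 (-2.11, edgeR adjusted p = 0.000186), C6 (-1.41, edgeR adjusted p = 0.0177), Itgam (-1.33, edgeR adjusted p = 0.0411), Masp1 (-0.87, edgeR adjusted p = 0.00234), C1ra (-0.52, edgeR adjusted p = 0.0189) and Clu (-0.48, edgeR adjusted p = 0.0127). The call for Cr2 held in 9 of 31 alternatives (edgeR adjusted p up to 0.27, within the 500s) and that for Itgam in 20 of 32, being lost without KW6002 1 (-0.87, edgeR adjusted p = 0.12) and with the fat marker covariate (-0.83, edgeR adjusted p = 0.18). That covariate also ended the calls for C6 (-1.04, edgeR adjusted p = 0.0689), C1ra (-0.30, edgeR adjusted p = 0.10) and Clu (-0.40, edgeR adjusted p = 0.0545), and the call for Masp1 was lost within the 500s (-0.46, edgeR adjusted p = 0.13).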

How the results depend on the processing

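The directions and calls of C3, Cfb, Serping1 and Cd55 in Cisplatin against Vehicle held in 33 of 33 alternatives, with log2 fold changes of 3.41 to 4.18, -3.65 to -3.10, 1.62 to 1.91 and 1.27 to 1.54. In Cisplatin + KW6002 against Cisplatin they held for Cfb (2.06 to 2.55), Serping1 (-0.87 to -0.67) and Cd55 (-1.16 to -0.73), and in 32 of 33 for C3 and C1s1. Scaling by library size alone moved the median of all genes in Cisplatin against Vehicle to 0.20, with 8157 genes higher and 4244 lower in place of 5930 and 6155, and reversed Cr1l (0.17 with cisplatin, 0.051 with cotreatment against Vehicle); the members kept their calls apart from C1qa, called lower with cotreatment against cisplatin (-0.68, adjusted p = 0.0458), and Cd55, called higher in cotreated against Vehicle kidneys (0.38, adjusted p = 0.0105).

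Counts of members moved mainly with the control kidneys, in fits chosen partly after seeing the data (leaving out Vehicle 1, Vehicle 2 and KW6002 1, and the fat marker covariate). These 3 kidneys are the controls highest in C3, C4b and the C1q genes and are also absent within the 500s. Counts from fits without them therefore cannot be read against the shares beside them. In Cisplatin against Vehicle, 7 members were higher with the number series as a covariate (33.6% of all genes in that fit), 8 within the 500s (31.4%) and 8 without the 3 kidneys (33.2%). In Cisplatin + KW6002 against Cisplatin, 2 were higher within the 500s (28.9%), without the 3 kidneys (28.6%) and with the fat covariate (20.6%), and 7 were lower within the 500s (28.6%), without the 3 kidneys (28.2%) and in the fit of the 2 groups alone (29.6%), but 2 were lower with the fat covariate (18.4%) and 2 under the stricter requirement. In cotreated against Vehicle kidneys, 6 were higher within the 500s (24.6%), 7 without the 3 kidneys (26.9%), 4 with the fat covariate (23.1%) and 1 under the stricter requirement. In the difference of KW6002 effects, 5 were lower within the 500s (15.9%) and without the 3 kidneys (19.1%), and 2 were higher with the fat covariate (20.4%). Of the other complement genes, a minimum of 10 counts in every library left 4 lower with cisplatin and 3 higher in the difference of effects, as fewer genes were tested, and the fat covariate left 5 lower with cotreatment against cisplatin.

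A reversal was counted where the sign changed and the gene was called in either fit, so changes of sign without a call are not listed. Values that reversed within the 500s and without the 3 kidneys were C4b with cisplatin (1.23 and 1.12), C3ar1 with cisplatin (0.77 and 0.70), and C1qa (0.55 and 0.48) and C1qb (0.71 and 0.57) in cotreated against Vehicle kidneys. C1qc there reversed without the 3 kidneys (0.44), C2 within the 500s (0.38), and Cfd with the fat covariate (2.08 against Vehicle, 1.84 against cisplatin). The cause was not tested.

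Same-numbered mice did not pair: 7 of 31 pairs of kidneys had deviations correlated above 0.1 (range -0.18 to 0.40). With a replicate block, 4 members were higher and 1 lower with cisplatin, and 1 higher and 5 lower with cotreatment against cisplatin, where C1qa passed (-0.63, adjusted p = 0.049). The groups held 5 or 6 mice, and the control kidneys were widely spread in C1q and C4b. What limited the C1q and C4b comparisons was not tested.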
